A study of Mus musculus with 721 samples.

Results

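Pou5f1, Sox2, Sall4 and Zfp42 are 4 transcription factor genes of the pluripotent cells of the mouse embryo, and they were taken by symbol from the 24483 gene rows of a single-cell RNA-seq table. All 4 had 1 row each. The cells came from C57Bl/6Babr embryos, with no genetic change or treatment, at embryonic day (E) 3.5, 4.5, 5.5 and 6.5. The titles name 37 embryos for the 721 cells, of which 13.7, 14.6, 37.03 and 34.7% were taken at the 4 stages in order. A label of double, given to wells seen as doublets during picking, was on 17.8% of the wells. Depth ran from 66896 to 3792936 counts in a cell (median 692863). The E6.5 cells had titles either with a plate (P1, P2 or P3) or with no plate, and many of the latter read E6.75. They are counted as separate embryos, and whether 2 embryos numbered alike in both sets are the same was not settled by the titles. The 9 cells of E3.5 whose titles give no embryo number were kept as 1 sum and counted as 1 embryo, and leaving them out changed no call of the 4 genes.

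Pou5f1 (OCT4) encodes a POU-domain factor that the inner cell mass (ICM) and the epiblast need in order to stay pluripotent, and SOX2 binds DNA together with it at composite octamer and Sox sites. Sall4 encodes a zinc finger protein of the spalt family that the ICM and its endoderm and epiblast descendants all use, and Zfp42 (REX1) encodes a zinc finger protein related to YY1 and is a classical marker of the naive state. During implantation, the ICM parts into the epiblast, which forms the embryo proper, and the primitive endoderm (PrE), which forms the visceral endoderm. These genes are often read as a set, and the question here was how each one behaves in the endoderm as well as in the epiblast.

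In the GRCm38 build, Pou5f1 lies on chromosome 17 (35506018 to 35510772, plus strand, Ensembl ENSMUSG00000024406.16) and Sox2 on chromosome 3 (34650405 to 34652461, plus strand, ENSMUSG00000074637.7). Sall4 lies on chromosome 2 (168748332 to 168767943, minus strand, ENSMUSG00000027547.17) and Zfp42 on chromosome 8 (43295063 to 43306980, minus strand, ENSMUSG00000051176.6). Sox2 lies within the span of the long non-coding gene Sox2ot, but shares 0 exonic bases with it, and Sox2ot stayed at or below 2.96 CPM (counts scaled to the same library total in every sum) in every sum of cells. Pou5f1 overlaps the antisense gene Gm19553 at 317 exonic bases. Gm19553 held 132943 counts against 645664 for Pou5f1 over all cells, and without strand in the counting the reads of both cannot be told apart.

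The promoter sequences are shown because POU and Sox factors bind short known DNA motifs. Of the 3 genes searched, 2 hold the octamer part within the 250 bases before their RefSeq start. The 250 bases before the transcription start are printed from RefSeq (GRCm38.p6), 5′ to 3′ on the strand of the gene. Capitals mark a match to the octamer part, whose letters are TTTGCAT and on the other strand read ATGCAAA. The Sox core, with the letters ATTGTT and on the other strand AACAAT, was searched in the same way on both strands, and no printed match belongs to both motifs.

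Pou5f1, chr17:35505782-35506031, plus strand: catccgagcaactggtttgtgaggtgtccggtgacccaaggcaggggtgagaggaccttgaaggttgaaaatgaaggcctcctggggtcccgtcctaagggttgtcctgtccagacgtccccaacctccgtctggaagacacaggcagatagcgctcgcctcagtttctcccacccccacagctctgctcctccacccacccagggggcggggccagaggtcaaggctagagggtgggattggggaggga
Sox2, chr3:34649745-34649994, plus strand: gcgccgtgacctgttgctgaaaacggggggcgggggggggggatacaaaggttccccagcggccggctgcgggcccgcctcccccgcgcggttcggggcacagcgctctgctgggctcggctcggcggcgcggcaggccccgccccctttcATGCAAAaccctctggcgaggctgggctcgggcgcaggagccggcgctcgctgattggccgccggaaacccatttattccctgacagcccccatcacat
Zfp42, chr8:43307010-43307259, minus strand: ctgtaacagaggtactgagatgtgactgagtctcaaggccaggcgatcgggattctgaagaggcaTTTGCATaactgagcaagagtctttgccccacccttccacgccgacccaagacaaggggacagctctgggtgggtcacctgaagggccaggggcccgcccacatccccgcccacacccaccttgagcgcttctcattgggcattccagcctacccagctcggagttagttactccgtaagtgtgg

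The octamer part begins 99 bases before the RefSeq start of Sox2, and in the Zfp42 promoter it lies farther upstream, at chr8:43307188-43307194. The RefSeq start of Sox2 itself lies upstream of the Ensembl start given above. It occurs in 4.63% of the 32851 promoters of the table, taken from 250 bases before to 50 bases after the start, and the Sox core occurs in 10.7%. The first Pou5f1 promoter holds neither motif, and a downstream Pou5f1 start (chr17:35508557-35508806) holds 1 Sox core. A match of these letters is a description and no measure of binding. Sall4 was not searched.

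Cells were clustered without the 4 genes and without the genes of the related lists below (53 genes held out in all), and the clusters were named from endoderm, epiblast and primitive streak markers. All 99 cells of E3.5 were taken as ICM. The cells of E4.5 divided into 27 that were epiblast-like and 78 that were PrE-like, and those of E5.5 were epiblast-like apart from 8 that were endoderm-like. The study set aside a small group of E4.5 cells with markers of both lineages, and here such cells stayed in the classes. Of the E6.5 cells, 41 were endoderm-like, 25 were primitive streak-like, 5 stayed unnamed and the others were epiblast-like. The epiblast-like cells at E6.5 fell into a cluster of 98 cells that all had a plate and a cluster of 81 cells that all had none. The former was named by the level of its epiblast markers, which stood only 0.207 (log2) above their mean in the other clusters. Raw counts of each embryo were added up by class wherever 3 or more cells were present, and 49 such sums were kept. P-values therefore measure the spread between embryos as counted by title. Added together, the 20 endoderm markers reached 12713 to 19419 CPM in PrE-like sums and 13116 to 31296 CPM in endoderm-like sums of E6.5. In epiblast-like sums they ranged from 1659 to 4388 CPM at E4.5, from 458 to 694 at E5.5 and from 622 to 6960 at E6.5. The 11 epiblast markers came to 686 to 1288 CPM in PrE-like sums and 769 to 1996 CPM in endoderm-like sums of E6.5, with none of them at 0 in either class. The 8 trophoblast markers, of a further cell type of the blastocyst, came to 161.8 to 993 CPM in the ICM, where Tex19.1 alone held 161.8 to 980 CPM and Ascl2 was at 0, and to 2.87 to 171.6 CPM in the E6.5 epiblast-like class. The part of these marker levels in the results was not tested.

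**Figure D1:**
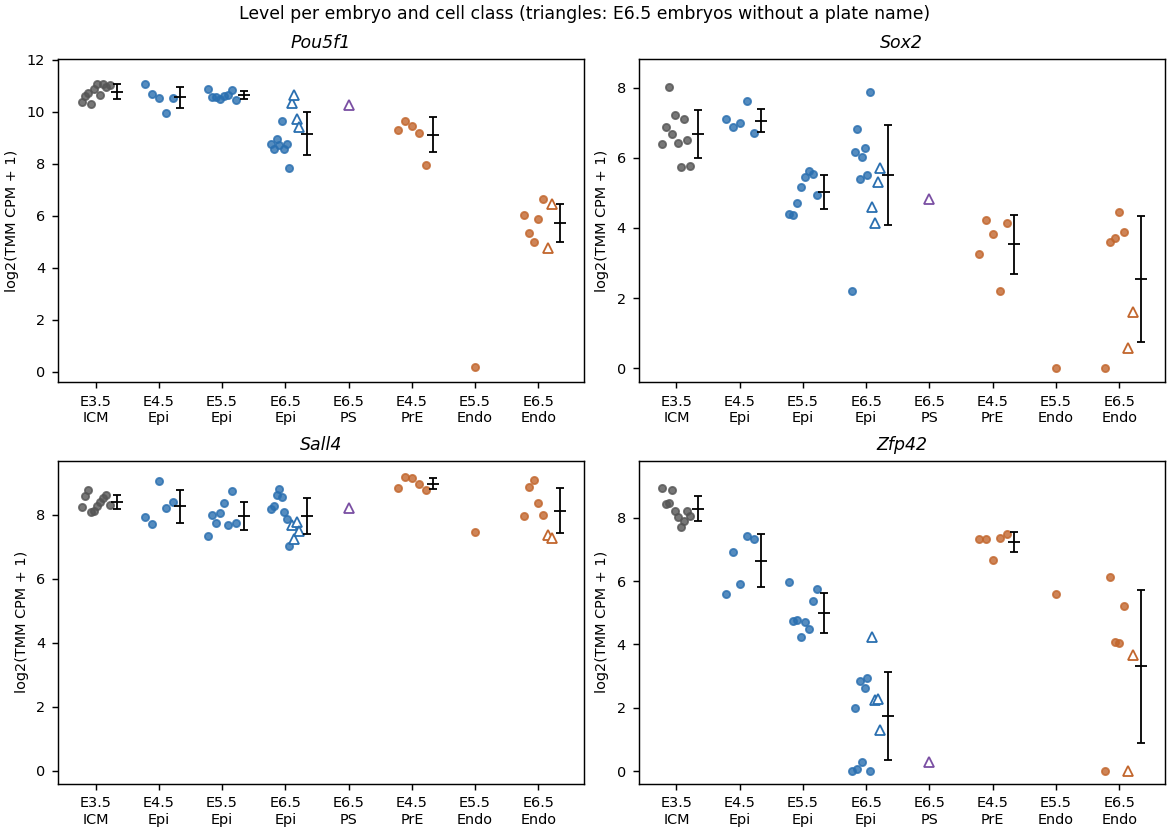
Level of each gene as log2(TMM-normalised CPM + 1) on the vertical axis, 1 point for each embryo, by cell class on the horizontal axis (Epi, epiblast-like, PS, primitive streak-like, Endo, endoderm-like), with mean and SD where a class has over 1 embryo. Triangles are E6.5 embryos with no plate name. The class means of Pou5f1 and Sox2 are lower in the endoderm-like than in the epiblast-like class of each stage, Sall4 stays within a narrow band, and Zfp42 is lower at each later stage in both lineages.

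The genes differed in level even within the ICM. Per kilobase of exon, Pou5f1 stood at 791 ± 150 CPM (SD, n = 10 embryos), Zfp42 at 171.2 ± 50.4, Sall4 at 61.1 ± 9.73 and Sox2 at 54.7 ± 29.1. Sall4 and Sox2 overlapped in this scale. In the PrE-like cells at E4.5 the order by length-scaled level was Pou5f1 (265.1 ± 94.004), Sall4 (91.1 ± 11.4), Zfp42 (81.04 ± 16.1) and Sox2 (5.81 ± 2.86 CPM per kilobase, n = 5). In the endoderm-like cells at E6.5, Sall4 (55.4 ± 26.6) was above Pou5f1 (25.7 ± 12.3) by this measure (n = 7). All other levels below are TMM-normalised CPM of class sums unless single cells are named.

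Pou5f1 fell in the epiblast between E5.5 and E6.5, and in the endoderm lineage it fell from the ICM to the PrE-like cells and from these to E6.5. In the ICM it ranged from 1249 to 2178 CPM with a median of 1802. The 5 E4.5 epiblast-like sums held 996, 1468, 1480, 1648 and 2171 CPM, and the 8 E5.5 epiblast-like sums ranged from 1406 to 1878 CPM (median 1560). These groups overlapped, and neither step passed the edgeR quasi-likelihood test, where a gene passed if its Benjamini-Hochberg adjusted p reached 0.05 or less and its log2 fold change exceeded 1 in size. The log2 fold changes were -0.20 (SE 0.30, adjusted p = 0.718) and 0.05 (SE 0.31, adjusted p = 0.971). At E6.5 the 12 epiblast-like sums ranged from 229.5 to 1621 CPM (median 464). Pou5f1 fell by 1.26 on the log2 scale (SE 0.25, adjusted p = 0.000335), and 11 of 12 embryos lay below every E5.5 embryo. In this comparison 2.46% of genes had no overlap between the embryos of both stages, and Pou5f1 was not among them. The share of genes with 11 of 12 embryos on 1 side was not computed.

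The drop at E6.5 was uneven between embryos. The 8 embryos with a plate ranged from 229.5 to 795 CPM and the 4 with no plate from 683 to 1621 CPM. Fitted with the plated embryos alone, the log2 fold change was -1.89 (adjusted p = 2.13e-08), and with the unplated embryos alone it was -0.51 (adjusted p = 0.392). Of the unplated embryos, the 2 titled E6.5 held 1314 and 1621 CPM in sums of 4 cells each, and the 2 titled E6.75 held 683 and 847 CPM. The 2 unplated embryos titled E6.5 shared that day with the plated ones. The parts of the plate and of the day in the result were not tested. The median number of detected genes in epiblast-like cells was 5862.5 with a plate and 8064 with none.

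In the PrE-like cells at E4.5, Pou5f1 was still well expressed. The 5 sums held 246.1, 590, 640, 699 and 805 CPM, all below the epiblast-like sums of the same 5 embryos and all below the 10 ICM sums. No overlap was seen in 13.3% of all genes for the former and in 9.2% for the latter comparison. It fell by 1.58 from the ICM (SE 0.33, adjusted p = 0.000302) and was lower than in the epiblast-like cells by a log2 fold change of -1.38 (SE 0.35, adjusted p = 0.0103), a 2.61-fold difference. Without E4.5 embryo 1 the latter had an adjusted p of 0.0665, and without embryo 5 of 0.0724. With the embryo as a block, the call held.

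From E4.5 to E6.5 the endoderm lost most of its remaining Pou5f1. The 7 endoderm-like sums at E6.5 ranged from 25.9 to 98.5 CPM with a median of 57.6, all below the PrE-like sums (8.3% of genes had no overlap) and all below the 12 epiblast-like sums of E6.5 (1.36% had none). Pou5f1 fell by 3.37 on the log2 scale (SE 0.34, adjusted p = 7.14e-10). Against the epiblast-like cells of E6.5 it was lower by a log2 fold change of -3.54 (SE 0.31, adjusted p = 3.24e-11), and lower in 7 of 7 embryos with both classes. The change from E4.5 to E6.5 was larger in the endoderm than in the epiblast (difference -2.16, SE 0.45, adjusted p = 0.00326), a contrast that 1.27% of the 13469 genes tested passed upwards and 3.02% downwards. The other 3 genes missed the threshold here, with 1.94 for Zfp42 (adjusted p = 0.332), 0.61 for Sox2 (adjusted p = 0.823) and -0.43 for Sall4 (adjusted p = 0.651).

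The endoderm-like cells at E5.5 were few, and 1 embryo gave a sum, from 5 cells labelled VE (visceral endoderm). That sum of 6668780 counts held 1 Pou5f1 count and 0 Sox2 counts, while it held 1207 Sall4 and 329 Zfp42 counts. The epiblast-like mean of Pou5f1 was 11124 times this 1 count, with an exact counting interval of 1997 to 439381, and the Sox2 mean was at least 76.7-fold higher, taking 3 counts over the sum as the limit. The other 3 endoderm-like cells of this stage came from 3 embryos, 1 of them in a double well, and held 29 Pou5f1 counts in all, 28 of them in the double well. With 1 sum against 8, 65.8% of all genes had no overlap, and in the fit the single sum was assumed to vary like the other classes. In the E6.5 endoderm-like class 30 of 41 cells held a Pou5f1 count. Pou5f1 was thus lower in the E5.5 sum (0.144 CPM) than in the E6.5 endoderm-like sums (25.9 to 98.5 CPM). The step between these stages was not tested.

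Sox2 differed between the lineages at E4.5. The 5 epiblast-like sums held 104.2, 117.4, 125.9, 136.1 and 194.8 CPM, and the 5 PrE-like sums held 3.60, 8.55, 13.3, 16.6 and 17.8 CPM. The groups did not overlap, as for 13.3% of all genes. Sox2 was lower in the PrE-like cells by a log2 fold change of -3.51 (SE 0.75, adjusted p = 0.00194), an 11.4-fold difference, and it fell by 3.23 from the ICM to the PrE-like cells (SE 0.70, adjusted p = 0.000597). From the ICM (52.5 to 257.5 CPM, median 95.3) to the epiblast-like cells no change passed (0.27, SE 0.59, adjusted p = 0.815). The highest ICM sum came from embryo 2 on plate P8, with 3 cells.

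Between E4.5 and E5.5 Sox2 fell in the epiblast. Of all genes, 11% had no overlap here. All 8 E5.5 sums (19.8 to 48.02 CPM, median 32.3) lay below all 5 E4.5 sums, with a log2 fold change of -2.03 (SE 0.61, adjusted p = 0.0317). The call did not hold without E4.5 embryos 1, 2, 3 or 4, with adjusted p between 0.0506 and 0.0855, at log2 fold changes between -2.08 and -1.86. At E6.5 the epiblast-like sums spread from 3.58 to 235.6 CPM (median 47.9). Both of these extremes were plated, and they came from sums of 3 and 7 cells. Sox2 was 0.97 higher at E6.5 than at E5.5 (SE 0.51, adjusted p = 0.247), and with sums of at least 5 cells it was 1.30 higher (adjusted p = 0.0269).

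In the endoderm at E6.5 Sox2 stayed low, at 0 to 21.1 CPM (median 11.1), lower than the epiblast-like sum in 7 of 7 embryos. The log2 fold change against the epiblast-like cells was -2.90 (SE 0.59, adjusted p = 0.000674), and with the embryo as a block it was -3.14 with an adjusted p of 0.0541. The change from the PrE-like cells did not pass (-0.45, SE 0.64, adjusted p = 0.714). With the unplated embryos alone, 2 in number at 0.474 and 2.06 CPM, the log2 fold change was -3.33 (adjusted p = 0.00895).

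Sall4 passed in no comparison of the lineages. The PrE-like sums were the highest of the class means, at 438, 453, 493, 561 and 578 CPM, and all 5 lay above the 10 ICM sums (272 to 435 CPM, median 325), in a comparison where 9.2% of all genes had no overlap. The epiblast-like sums at E4.5 held 207.5, 242.9, 295, 338 and 533 CPM, and in each of the 5 embryos the PrE-like sum was the higher. The log2 fold change was 0.64 (SE 0.31, adjusted p = 0.198) against the epiblast and 0.58 (SE 0.26, adjusted p = 0.109) against the ICM, so neither passed. In the epiblast Sall4 lay between 161.1 and 423 CPM at E5.5 (median 233.5) and between 127.9 and 450 CPM at E6.5 (median 250.8), and the fold changes between stages were -0.33 (SE 0.27, adjusted p = 0.564) and 0.05 (SE 0.22, adjusted p = 0.943).

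In the endoderm-like cells of E6.5 Sall4 ranged from 152.3 to 540 CPM (median 255.5), a log2 fold change of 0.21 against the epiblast-like cells (SE 0.23, adjusted p = 0.576). It was higher in 4 embryos and lower in 3. From the PrE-like cells it was lower by a log2 fold change of -0.72 (SE 0.28, adjusted p = 0.0772), and 5 of 7 sums lay below all 5 PrE-like sums. This comparison passed with Ward clustering (-1.04, adjusted p = 0.00800) and with the unplated embryos alone (-1.72, adjusted p = 0.00151). Those 2 sums held 152.3 and 162.7 CPM and the 5 plated sums held 246.985 to 540 CPM.

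Zfp42 was lower at each later stage in both lineages, and the drops to E6.5 passed. It was highest in the ICM (207.1 to 495 CPM, median 295), and all 5 epiblast-like sums (47.1, 59.4, 119.8, 160.9 and 170.1 CPM) and all 5 PrE-like sums (100.6, 158.8, 160.2, 162.4 and 180.1 CPM) lay below it. No overlap was seen in 7.35% and 9.2% of all genes in turn. The fitted changes of -1.53 (SE 0.76, adjusted p = 0.148) and -1.08 (SE 0.74, adjusted p = 0.341) did not pass in the fit over all classes, and they passed when only the classes compared were fitted (adjusted p = 0.00229 and 0.00689). In the epiblast 6 of 8 E5.5 sums (17.7 to 61.7 CPM, median 26.03) lay below every E4.5 sum, with a log2 fold change of -1.72 (SE 0.73, adjusted p = 0.148), and at E6.5 the sums reached 0 to 17.8 CPM (median 3.36). This last step passed, with a drop of 3.05 (SE 0.61, adjusted p = 0.00042).

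Zfp42 was the 1 gene of the 4 that passed as higher in the endoderm than in the epiblast at E6.5. The 7 endoderm-like sums ranged from 0 to 69.2 CPM (median 15.4), and the log2 fold change was 2.39 (SE 0.62, adjusted p = 0.00643). It was higher in 5 of 7 embryos and lower in 1, and 2 of the 7 endoderm-like sums had no count. The call depended on the set of embryos and on the fit. With the embryo as a block the value was 2.45 with an adjusted p of 0.410, when only these classes were fitted it was 2.41 (adjusted p = 0.179), and with the unplated embryos alone the sign turned (-0.22, adjusted p = 0.957). With the plated embryos alone it was 3.24 (adjusted p = 0.00192). At E4.5 the same contrast did not pass (0.45, SE 0.82, adjusted p = 0.832), with the PrE-like sum higher in 4 of 5 embryos. From the PrE-like cells to E6.5 Zfp42 fell by 2.83 (SE 0.78, adjusted p = 0.0109), and with sums of at least 5 cells the adjusted p was 0.0659.

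**Figure D2:**
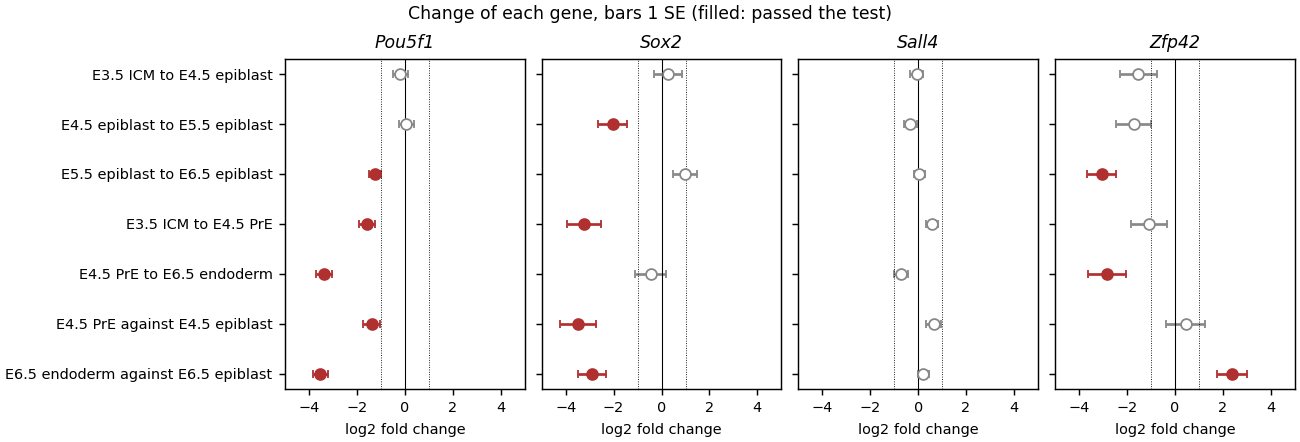
Log2 fold change (horizontal axis, edgeR) of each gene in 7 comparisons (vertical axis), with bars of 1 SE and dotted lines at the limits of 1, where filled red points passed the test. Pou5f1 and Sox2 passed in both endoderm against epiblast comparisons, Sall4 passed in none, and Zfp42 lay on the other side of 0 at E6.5.

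Read beside all 13469 genes tested, the epiblast steps were passed downwards by 8.14% (to E4.5), 2.97% (to E5.5) and 3.64% (to E6.5) of the genes. Of the 4 genes, 0, 1 (Sox2) and 2 (Pou5f1 and Zfp42) fell in turn. In the endoderm, 6.08% of genes fell from the ICM to the PrE-like cells, with 2 of the 4 genes (Pou5f1 and Sox2), and 7.46% from the PrE-like cells to E6.5, with 2 (Pou5f1 and Zfp42). Between the lineages 3.25% were lower in the endoderm at E4.5, with 2 of the 4, and 9.07% at E6.5, with the same 2, where Zfp42 was among the 6.27% that were higher. In the primitive streak comparison 0.0148% of genes rose, which is 2 genes, Fgf3 and Dll1, named here after their values were seen. All these comparisons share classes, so their counts are not independent.

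The primitive streak is where epiblast cells enter gastrulation. Its cells numbered 25, 24 of them from 1 embryo without a plate name at E6.5, and they gave 1 sum. That sum held 1244 Pou5f1 CPM, 27.2 Sox2, 295 Sall4 and 0.226 Zfp42 CPM, the last from 4 counts. The 4 epiblast-like cells of the same embryo held 1621, 16.7, 151.5 and 3.72 CPM in the same order. None of the 4 genes passed against the epiblast-like class, with an adjusted p of 1 for each (Pou5f1 0.89, SE 0.52, Sox2 -1.26, SE 1.26, Sall4 0.16, SE 0.49, Zfp42 -4.11, SE 2.03), and with the unplated embryos alone, the Pou5f1 value was 0.20 (SE 0.45). Of all genes, 11.1% had no overlap in this comparison with 1 sum.

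Pou5f1 was detected in every cell of the ICM, of the PrE-like class and of the epiblast-like classes, and Sall4 in 96.9% (exact 95% interval 94.005 to 98.7%) or more of the cells of each class. In the endoderm-like class of E6.5, 73.2% of the 41 cells had a Pou5f1 count (57.1 to 85.8%), with a median of 29.8 CPM and a highest value of 569 CPM. These 30 cells had a median of 1406 CPM of summed epiblast markers and the 11 without a count had 1047 CPM, with median depths of 739762 and 1481370 counts. The cells with a count were shallower, and the share with Pou5f1 was 65% after every cell was thinned to 150000 counts.

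Sox2 was seen in all 27 epiblast-like cells at E4.5 and in 20 of 78 PrE-like cells (25.6%, 16.4 to 36.8%). The share was 21.3% in 47 single wells and 32.3% in 31 double wells. The 20 PrE-like cells with a Sox2 count had a median of 1080 CPM of summed epiblast markers and the other 58 had 763 CPM, while their endoderm markers came to medians of 16212 and 15137 CPM. Whether cells with markers of both lineages, which the study set aside, are among them was not tested. The share with Sox2 was 89.9% in the ICM, 69.5% in the E5.5 epiblast-like class (63.5 to 75.05%) and 90.5% in the E6.5 epiblast-like class (85.2 to 94.4%). After thinning the last 3 shares were 82.8%, 61.6% and 83.3%, with 9 cells in all left out. In the endoderm at E6.5 the share was 43.9% (28.5 to 60.3%).

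Zfp42 went from 98.99% of ICM cells to 54.8% of E5.5 and 17.9% of E6.5 epiblast-like cells (12.6 to 24.3%), with 97.4% of PrE-like and 24.4% of E6.5 endoderm-like cells (12.4 to 40.3%). The intervals of both E6.5 classes overlap. At E5.5, 39.8% of the epiblast-like cells held both Sox2 and Zfp42, 29.7% only Sox2, 15.1% only Zfp42 and 15.4% neither. At E6.5, 74.9% held Sox2 without Zfp42 and 2.23% held Zfp42 without Sox2. In the PrE-like class the pattern was the other way, with 56 of 78 cells holding Zfp42 without Sox2 and 0 holding Sox2 without Zfp42. All 4 genes were detected together in 87 of 99 ICM cells, in 27 of 27 epiblast-like cells at E4.5, in 39.4% of them at E5.5, in 15.6% at E6.5 and in 20 of 78 PrE-like cells.

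**Figure D3:**
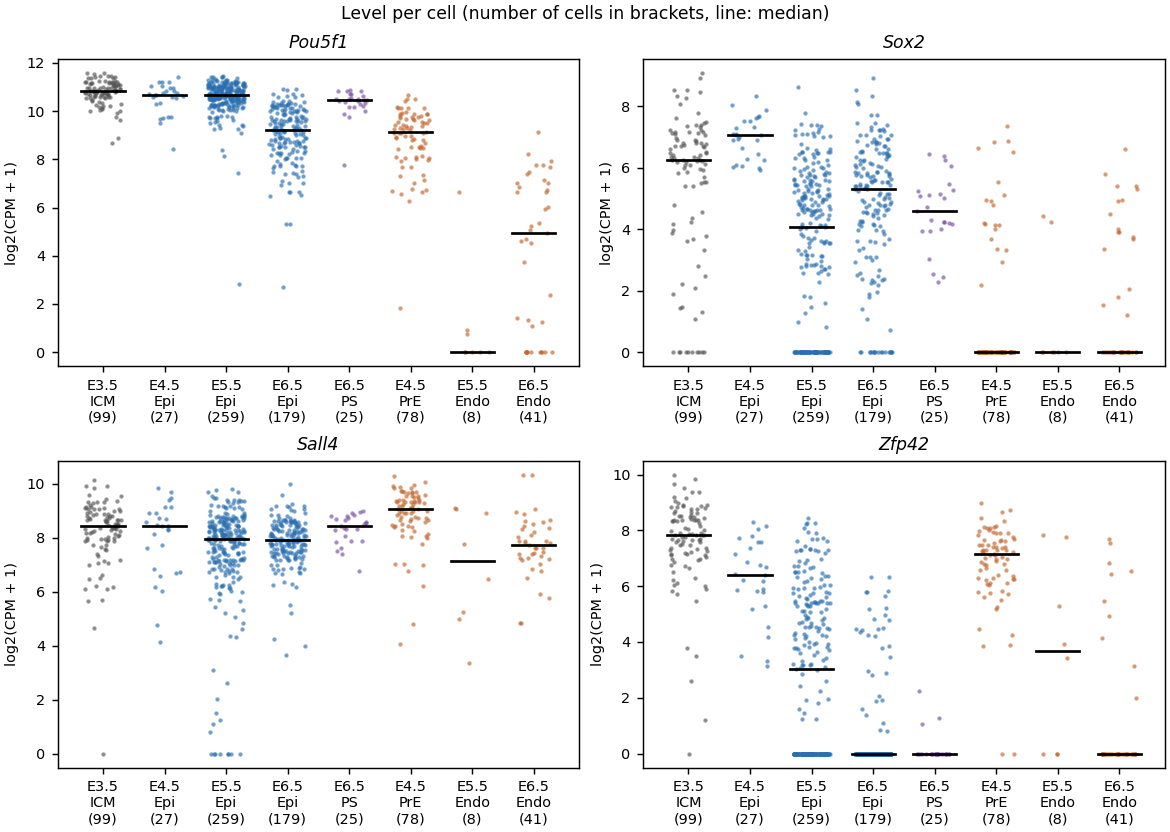
Level of each gene in single cells as log2(CPM + 1) on the vertical axis, by class on the horizontal axis with the number of cells in brackets, with a line at the median. Sox2 has many cells at 0 in the PrE-like and endoderm-like classes and in the E5.5 epiblast-like class. Zfp42 has many cells at 0 from E5.5 on, while Sall4 stays above 0 in nearly all cells.

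Within embryos, correlations between the 4 genes had medians near 0 for most pairs and differed widely from embryo to embryo. In the 4 ICM embryos they ran from -0.85 to 0.12 for Sall4 and Zfp42 and from -0.44 to 0.61 for Pou5f1 and Sall4. The primitive streak-like class had 1 embryo with enough cells, with pairs between -0.23 and 0.37. The E4.5 epiblast-like and both endoderm-like classes had none. Spearman's rho of the single-cell CPM was computed in embryos that had 10 or more cells of the class, and its median over embryos lay between -0.21 and 0.29 for every pair in the ICM, the PrE-like class and the epiblast-like classes of E5.5 and E6.5. The median of Pou5f1 and Sox2 was 0.29 in the PrE-like cells (4 embryos, 0.13 to 0.43, positive in each), 0.11 in the ICM, -0.04 in the epiblast-like cells of E5.5 (8 embryos, -0.14 to 0.18) and 0.16 at E6.5 (6 embryos, -0.24 to 0.46). In the PrE-like cells of single wells it was 0.42 in 3 embryos (0.41 to 0.47), and after thinning it was 0.29. Sox2 and Zfp42 had a median of -0.19 in the E6.5 epiblast-like cells (4 embryos, -0.22 to -0.09, negative in each). It was -0.18 after thinning and -0.18 in single wells. The median over embryos of each member's rho with all other genes detected in at least 50% of the cells lay between -0.02 and 0.07 in these classes. Of these other genes, a median of 80.7% had a lower rho with Pou5f1 than Sox2 had in the PrE-like cells. In the E6.5 epiblast-like cells, a median of 19.2% had a lower rho with Sox2 than Zfp42 had. Cells of an embryo differ in depth, and Sox2 in the PrE-like cells also had a median rho of 0.48 with the number of genes detected. Most pairs had embryos on both sides of 0, and medians this weak, from few embryos and sparse counts, are not read further.

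**Figure D4:**
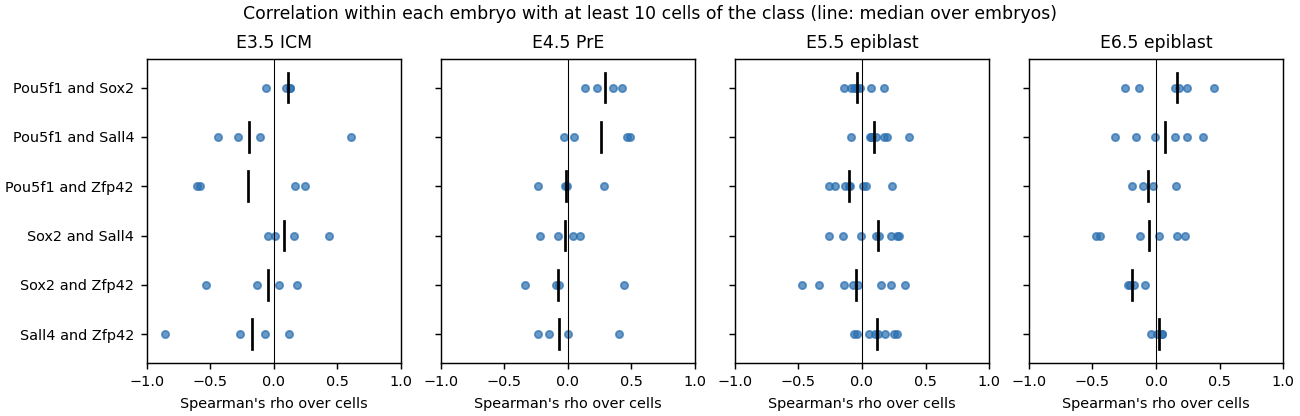
Spearman's rho between pairs of the 4 genes over the cells of single embryos (1 point for each embryo that had 10 or more, line at the median), in 4 classes. Most pairs have embryos on both sides of 0, and Pou5f1 and Sox2 in the E4.5 PrE-like cells are positive in all 4 embryos. Sox2 and Zfp42 in the E6.5 epiblast-like cells are negative in all 4 embryos with a value.

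Over the 49 class sums, Pou5f1 and Sox2 had a Pearson correlation of 0.72 of TMM log2 CPM. This is rank 34 of 13468 genes for Pou5f1 and rank 8 for Sox2. Within the epiblast their steps differed. From E4.5 to E5.5 the log2 fold changes were 0.05 for Pou5f1 and -2.03 for Sox2, and only the latter passed. From E5.5 to E6.5 they were -1.26 and 0.97, and only the former passed. Sall4 reached 0.14 with Pou5f1, 0.18 with Sox2 and 0.37 with Zfp42, and Zfp42 reached 0.31 with Pou5f1 and 0.32 with Sox2. The genes most like Pou5f1 were its antisense neighbour Gm19553 (0.99), Mybl2 (0.84) and Tdgf1 (0.84), which encodes the Nodal co-receptor Cripto. Gm19553 shares 317 of its 494 exonic bases with Pou5f1, where the reads of both cannot be told apart. The part of this overlap in the 0.99 was not tested. The genes most like Sox2 were Pmm1 (0.84), Socs2 (0.80) and Uchl1 (0.76). For Sall4 they included Ncoa3 (0.62) and Strn (0.58), and for Zfp42 they were Gm13154 (0.83), Dppa2 (0.80) and Epb4.1l1 (0.79). The best match of Sall4 was weaker than that of any of the other 3 genes. Several sums come from the same embryo, so the correlations describe these classes only.

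Genes that OCT4 and SOX2 are known to act on, a list of 18, moved in both directions. From the ICM to the epiblast-like cells 6 rose and 1 fell (median log2 fold change 0.57, all genes 0), where 13.1% of all genes rose and 8.14% fell. From E4.5 to E5.5 in the epiblast 0 rose and 8 fell (-1.23, all genes 0.15), where 3.36% rose and 2.97% fell. To E6.5, 2 rose and 5 fell (-0.84, all genes 0.04), where 4.28% rose and 3.64% fell. Otx2, a head-forming homeobox factor, rose from 7.10 ± 10.2 to 109.4 ± 29.8 CPM and Lin28a, an RNA-binding factor, from 11.7 ± 10.7 to 170.8 ± 46.5 CPM at E4.5, while Fbxo15 fell from 643 ± 254.1 to 67.9 ± 30.9 CPM. At E5.5 Tcl1 fell from 98.4 ± 46.5 to 0.589 ± 0.830 CPM, and Fbxo15 fell again from 67.9 ± 30.9 to 0.921 ± 1.66 CPM. At E6.5 Nanog rose from 10.4 ± 4.44 to 86.7 ± 66.4 CPM and Mycn from 43.02 ± 16.7 to 208.6 ± 57.6 CPM, while Tcl1 went from 0.589 ± 0.830 CPM to no count and Gdf3, a TGF-beta ligand, fell from 128.5 ± 24.7 to 15.7 ± 21.97 CPM.

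In the endoderm 3 of the 18 rose and 9 fell from the ICM to the PrE-like cells (median -1.19, all genes 0.15), where 13% of all genes rose and 6.08% fell. To E6.5, 2 rose and 6 fell (-0.39, all genes -0.02), where 5.43% rose and 7.46% fell. Lefty1, a Nodal inhibitor, rose from 0.929 ± 2.52 to 156.5 ± 117.1 CPM and Lin28a to 163.5 ± 48.5 CPM in the PrE-like cells. Nanog fell from 305 ± 195.4 to 4.37 ± 4.36 CPM and Tdgf1 from 1101 ± 433 to 64.2 ± 35.98 CPM. By E6.5 the endoderm-like cells had gained Otx2, from 4.09 ± 4.08 to 317 ± 278 CPM, and Rif1, from 122.3 ± 38.8 to 246.4 ± 153.7 CPM, and they had 0 counts of Tcl1 after 121.015 ± 45.9 CPM. Spp1, osteopontin, fell from 264.8 ± 217.6 to 2.51 ± 6.64 CPM.

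Against the epiblast, 0 targets were higher and 7 lower in the PrE-like cells at E4.5 (median -2.08, all genes 0.06), where 4.57% of all genes were higher and 3.25% lower, led by Nanog (116.4 ± 25.5 against 4.37 ± 4.36 CPM) and Otx2 (109.4 ± 29.8 against 4.09 ± 4.08). At E6.5, 1 was higher and 4 lower (-0.99, all genes -0.18), where 6.27% were higher and 9.07% lower. Lefty1 was higher in the endoderm (111.4 ± 121.2 against 11.1 ± 9.78 CPM), and Tdgf1 (37.1 ± 45.5 against 383 ± 187.7) and Nanog (16.5 ± 20.7 against 86.7 ± 66.4) were lower. Of the 18 targets, which were listed with earlier results of these data known, 5 also served to name the classes, and without these 5 the counts lower were 3 of 13 at E4.5 and 1 of 13 at E6.5. In the E5.5 comparison with 1 sum, 0 were higher and 3 lower, where 2.94% of all genes were higher and 4.91% lower, with no count of Tdgf1 and 1.01 CPM of Zscan10 against 130 ± 34.2 in the epiblast.

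Factors that work with these genes in the pluripotency network and its chromatin, a list of 18, had 10 members that fell between E4.5 and E5.5 in the epiblast (median -3.28, all genes 0.15) and 0 that rose, where 2.97% of all genes fell and 3.36% rose. From the ICM to E4.5, 3 rose and 3 fell (13.1% and 8.14% of all genes), and to E6.5 3 rose and 3 fell (4.28% and 3.64%). Rcor2 rose from 22.99 ± 20.8 to 96.9 ± 24.9 CPM and L1td1 from 130.7 ± 54.1 to 382 ± 48.02 CPM at E4.5, when Prdm14 fell from 37.4 ± 31.1 to 0.540 ± 1.21 CPM and Dppa2 from 899 ± 209.3 to 116.8 ± 41.03 CPM. Esrrb, a nuclear receptor of the naive state, fell at E5.5 from 102.2 ± 37.3 to 0.998 ± 2.19 CPM and Tfcp2l1 from 164.5 ± 116.4 to 2.32 ± 1.94 CPM. At E6.5 Dppa2 fell from 84.4 ± 29.4 to 3.15 ± 4.29 CPM and Nr5a2 to 0.00238 CPM from 0.428. Prdm14 and Tbx3 rose, and Prdm14 stayed at 0.646 ± 2.24 CPM while Tbx3 reached 9.25 ± 21.01 CPM. In 1 of the 12 embryos Prdm14 stood at 7.75 CPM and the other 11 had no count, and 1 embryo with 75.1 CPM of Tbx3 held most of its mean.

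In the endoderm 0 partners rose and 10 fell from the ICM to the PrE-like cells (median -2.81, all genes 0.15), where 13% of all genes rose and 6.08% fell, led by Prdm14, to 0.0131 CPM, and Nanog. To E6.5, 1 rose and 3 fell (5.43% and 7.46% of all genes), with Zfp281 up from 27.7 ± 11.2 to 113.4 ± 110.9 CPM, Klf5 down from 308 ± 99.8 to 13.6 ± 14.4 and Dppa2 from 55.96 ± 23.7 to 6.31 ± 7.23 CPM. Against the epiblast 0 were higher and 7 lower at E4.5 (-2.04, all genes 0.06), where 4.57% and 3.25% of all genes were, among them Klf2 (3.01 ± 2.44 against 88.7 ± 26.3 CPM). At E6.5 4 were higher and 4 lower (6.27% and 9.07% of all genes). Tbx3 was higher (121.1 ± 121.6 against 9.25 ± 21.01 CPM) and Rcor2 lower (8.02 ± 8.29 against 50.0004 ± 82.8), while Nr5a2 and Prdm14 differed at levels below 0.7 CPM. In the E5.5 sum, Tfcp2l1 (87.1 CPM) and Klf5 (72.2 CPM) were higher than in the epiblast-like cells (2.32 ± 1.94 and 3.36 ± 2.61), L1td1 was lower and Rcor2 had no count.

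Relatives of the members by family, a list of 15 with 14 tested, moved in both directions. From the ICM to the epiblast-like cells 6 rose and 0 fell (median 2.14, all genes 0), where 13.1% and 8.14% of all genes did, with Sall3 at 28.3 ± 19.7 CPM after 0.0247 and Sox11 at 4.36 ± 3.05 CPM after no count. At E5.5 2 rose and 1 fell, where 3.36% and 2.97% of all genes did. Sall2 (52.1 ± 14.9 after 2.34 ± 2.98 CPM) and Sox4 (86.1 ± 25.7 after 15.0 ± 6.505) rose and Sox7, after 9.16 ± 13.3 CPM, had no count. At E6.5 3 rose and 1 fell (4.28% and 3.64% of all genes), with Yy1, the closest relative of Zfp42, at 187.4 ± 91.9 after 48.5 ± 14.7 CPM, Sox7 at 3.66 ± 5.65 CPM after no count, and Pou2f3 at 0.0917 after 6.18 ± 4.02 CPM. From the ICM to the PrE-like cells 2 rose and 1 fell, where 13% and 6.08% of all genes did. Sox7 rose from 0.0988 to 198.8 ± 36.5 CPM and Sox15 fell from 51.1 ± 45.8 to 0.916 ± 1.20 CPM, while Sox11 passed at 0.209 CPM. By E6.5 4 rose in the endoderm and 0 fell (5.43% and 7.46% of all genes), led by Sox4 (368 ± 354 after 0.228 CPM) and Pou3f1 (19.3 ± 23.1 after 0.171 CPM).

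Against the epiblast, 0 relatives were higher and 4 lower at E4.5 (4.57% and 3.25% of all genes), led by Sall3 and Pou3f1 (17.1 ± 17.2 against 0.171 CPM), and at E6.5 Sox17, an endoderm factor, was higher (84.1 ± 90.9 against 4.23 ± 5.19 CPM) while 3 were lower, among them Sox15 and Sox11 (6.27% and 9.07% of all genes). Of the list 3 genes, Sox7, Sox17 and Pou3f1, also served to name the classes. Without these 3, 0 were higher and 3 of 11 lower at E4.5, and 0 were higher and 2 of 11 lower at E6.5. In the E5.5 sum the class markers Sox7 (34.8 CPM) and Sox17 (111.04 CPM) were higher, and the class marker Pou3f1 had no count.

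Trophoblast markers, a list of 8, mark a cell type that the authors had cleared away by immunosurgery before dissociating the blastocysts, and cells with counts of Elf5, Wnt7b and Tex19.1 had been left out by them as trophoblast. From the ICM to the epiblast-like cells 1 rose and 2 fell (13.1% and 8.14% of all genes), and from the ICM to the PrE-like cells 1 rose and 4 fell (13% and 6.08%), with Cdx2 (16.1 ± 35.6 CPM) and Hand1 (12.03 ± 20.2 CPM) at no count at E4.5 and Ascl2 at 8.25 ± 9.13 CPM in the epiblast-like and 1.05 ± 1.29 CPM in the PrE-like cells after no count. Krt7 rose to 2.79 ± 2.61 CPM in the E5.5 epiblast-like cells, where 3.36% of all genes rose. Tex19.1 fell from 79.9 ± 36.3 to 17.4 ± 22.9 CPM in the epiblast at E6.5, where 3.64% fell. In the endoderm 3 rose by E6.5, among them Cdx2 to 5.91 ± 7.95 and Krt7 to 4.11 ± 4.24 CPM, and 0 fell (5.43% and 7.46% of all genes). Between the lineages 0 of the 8 passed at E4.5, where 4.57% of all genes were higher and 3.25% lower in the endoderm. At E6.5 0 passed as well, where 6.27% were higher and 9.07% lower.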

How the data were processed

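Single cells of C57Bl/6Babr embryos were profiled by a Smart-seq2 type of RNA-seq per the labels, with mRNA captured on beads and amplified after the G&T-seq protocol and made into Nextera XT libraries per the study's methods. The authors trimmed reads with Trim Galore (0.4.3 per the labels), aligned them to GRCm38 with HISAT2 (2.0.5 per the labels), removed poorly mapped reads, and used SeqMonk to count reads per gene, with no strand setting given in the sources used here. The deposited values are raw counts with no normalization. Depth was 66896 to 3792936 counts per cell (median 692863). The members and the gene lists were chosen with earlier results of these data known, and 5 targets, 2 partners and 3 relatives also served as class markers.

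Stage, embryo, plate and well came from the titles and labels. Embryos are the replicates, 37 by title, which is more than the study reports. Cells were clustered by steps after SC3 with 53 genes held out (8 clusters over all cells, 5 at E6.5). Class sums of 3 or more cells per embryo were tested with edgeR 4.0.16 in R 4.3.3 (TMM, filterByExpr, quasi-likelihood test, Benjamini-Hochberg over 13469 genes), all classes in 1 fit. The threshold was 0.05 for the adjusted p together with a log2 fold change above 1 in size. In embryos holding both classes, the pairs come from the same embryo. The correlation of their deviations lay between 0.02 and 0.29 and the blocked fit is given where it changes a call. On simulated counts with 200 genes changed 8-fold, 22 to 119 were recovered in a comparison, with at most 5 other genes called. Single cells were described with Python 3.11.15 and scipy 1.17.1, with exact 95% binomial intervals, which cover counting error only. Named genes are the 4 members, the 3 genes most like each (1 of them is not reported here), and the 2 largest rises and drops among those passing in each list. Alternatives were DESeq2 1.42.0, RLE normalization, no filter, single wells, Ward clustering, other cell minimums, plates, the block and leaving out each E4.5 embryo.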

Additional observations from a re-analysis of the deposited data

Results flagged for a closer look

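Sox2 in the ICM reached 257.5 CPM in embryo 2 of plate P8, against 146.996 CPM in the next of the 10 sums, a gap of 0.539 of the whole range. Zfp42 in the PrE-like cells was 100.6 CPM in E4.5 embryo 3 on plate P2, with the other 4 sums from 158.8 to 180.1 CPM, a gap of 0.733 of the range. Of 20 groups of 4 to 10 sums examined in this way, these 2 stood apart, and chance alone would set apart about 1 group in 20. The change of Pou5f1 from E4.5 to E6.5 differed between endoderm and epiblast (-2.16 on the log2 scale, adjusted p = 0.00326).

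Outside the comparisons, 5 cells at E6.5 stayed unnamed. Pou5f1 was counted in 100% of them (median 656 CPM), Sall4 in 100% (median 122.5 CPM) and Sox2 in 80% (median 18.7 CPM). Zfp42 was counted in 0 of 5 cells.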

How the results depend on the processing

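Among the values of the 4 genes, 307 kept their direction and their side of the threshold in settings other than leaving out an embryo, and 14 changed direction, 7 gained and 7 lost the threshold. Where no cause is named, the cause was not tested. With a limit of log2 2 the Pou5f1 difference of PrE-like and epiblast-like cells (-1.38) no longer passed. Values close to 0 changed sign for Pou5f1 from E4.5 to E5.5 (-0.0103 with RLE and with DESeq2) and for Sall4 from E5.5 to E6.5 (-0.0035 with RLE, -0.0023 with no filter, -0.00025 with only the classes compared, -0.0033 with DESeq2).

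With only the classes compared in the fit, where fewer samples enter, Zfp42 passed from the ICM to the epiblast-like (-1.56) and PrE-like cells (-1.05) and from E4.5 to E5.5 (-1.71). It no longer passed from the PrE-like cells to E6.5 (-2.93) and against the E6.5 epiblast (2.41). The share of tested genes passing was then 13.95% (ICM to epiblast, 21.2% with all classes), 17.6% (E4.5 to E5.5, 6.33%), 14.99% (ICM to PrE, 19.1031%), 8.53% (PrE to E6.5 endoderm, 12.9%), 9.42% (E6.5 lineages, 15.3%), 0% (primitive streak, 0.0148%), 55.97% (E5.5 lineages, 7.86%) and 2.99% (difference of changes, 4.29%). The 0 comes from edgeR, where DESeq2 called 30 genes. Zfp42 gave no value in this setting for the primitive streak. Without the filter on low counts 11.7% passed from E5.5 to E6.5 (7.92% with it), which is 2378 genes in place of 1067. In single wells alone Sox2 from PrE to E6.5 was 0.068. With Ward clustering Sall4 was -1.04 in that step, which passed, and -0.15 between the E6.5 lineages.

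With sums of at least 5 cells Sox2 passed from E5.5 to E6.5 (1.30) and Zfp42 no longer passed from PrE to E6.5 (-2.33), and 13.5% (E5.5 to E6.5), 0.0271% (primitive streak) and 13.3% (E5.5 lineages) of genes passed. With plated E6.5 embryos alone, 9.52% passed between the E6.5 lineages. With unplated ones alone, 2.33% (E5.5 to E6.5), 3.29% (PrE to E6.5), 2.17% (lineages) and 1.04% (difference of changes) passed. There Pou5f1 (-0.51), Sox2 (-0.0134) and Sall4 (-0.44) from E5.5 to E6.5, Sox2 (-3.33) and Sall4 (-1.72) from PrE to E6.5, Sall4 (-0.25) and Zfp42 (-0.22) between the lineages, and Sox2 (-1.30) and Zfp42 (-0.72) in the difference of changes lost, gained or turned. DESeq2 called 0.223% (primitive streak, 3 genes higher and 27 lower, against 2 and 0), 24.5% (E5.5 lineages, 512 higher and 2789 lower, against 396 and 662) and 6.45% (difference of changes) of genes.

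With the embryo as a replicate block, 5.91% of genes passed between the E6.5 lineages in place of 15.3%, and Sox2 (-3.14) and Zfp42 (2.45) lost the threshold. The block changed no other call of the 4 genes.

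Leaving out each E4.5 embryo in turn gave 3.66 to 4.596% of genes between the E4.5 lineages (7.83% with all), 1.89 to 2.704% for the difference of changes (4.29%) and 4.01 to 4.78% from E4.5 to E5.5 in the epiblast (6.33%). Sox2 in that step lay between -2.12 and -1.86 and lost the threshold without embryo 1, 2, 3 or 4, and Pou5f1 lay between -0.072 (without embryo 4) and 0.22. Pou5f1 between the E4.5 lineages lay between -1.50 and -1.16 and lost the threshold without embryo 1 or 5. Sall4 from the ICM to the epiblast-like cells lay between -0.32 and 0.0599, above 0 without embryo 1 or 2.

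Depth limits the low values. Sox2 in single E5.5 epiblast-like cells went from 69.5% to 61.6% with a count when thinned, and in E6.5 epiblast-like cells from 90.5% to 83.3%. The single E5.5 endoderm-like and primitive streak-like sums had few simulated 8-fold changes recovered (22 and 23 of 200).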
